A study of Homo sapiens with 12 samples.

Results

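In 75 protein-coding genes the level was low in the etoposide-resistant leukemia subline K/VP.5 and higher both in its parent K562 and in an edited clone derived from K/VP.5. They were chosen from measured values: read counts were scaled to a common library total (CPM), averaged over the 4 libraries of a line, and 0.1 was added. A gene was a member if edit-3 and K562 were both at 2 or more and both at least 3 times K/VP.5, and gene families with symbols starting ABC, ADGR, COL, HIST, HLA-, HOX, KCN, OR5 or ZNF were left out. The table holds 58395 genes, 19912 of them protein coding, and 10311 coding genes reached the level of 2 in both edit-3 and K562. The same numbers were met by 86 genes, of which 7 were not protein coding and 4 belonged to a family left out.

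RNA was sequenced from 3 lines, with 4 libraries each. Edit-3 (K/VP.5/edit-3) was cloned from K/VP.5 after Cas9 protein, guide RNA and a repair oligonucleotide had altered the 5′ splice site where exon 19 of TOP2A, which encodes topoisomerase IIα, meets intron 19. K/VP.5 was itself cloned from K562 and is resistant to etoposide, which stabilises the DNA breaks made by topoisomerase II. K562 is the parental line, established from a chronic myeloid leukemia in blast crisis. The maintenance protocol for the 3 lines gives 0.5 µM etoposide every second week in one sentence, so it cannot be told from it whether K562 received the drug. Edit-3 and K/VP.5 are each 1 clone, so the edit, the clone and the time in culture cannot be told apart. No label tells if the 4 libraries of each line stem from different cultures, so p-values measure the spread between libraries, which may be technical.

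K562 cells carry the BCR-ABL fusion and can take on erythroid or megakaryocyte-like traits. Blood cells of related lineages share transcription factors such as RUNX1, receptors such as KIT, and adaptor proteins that link surface receptors to integrins and to the actin skeleton. Several of the 75 genes belong to this machinery, and others are better known from nerve, muscle or epithelium. Each library held 25.3 M to 37.1 M reads. Of 12 markers set down for the K562 type, 11 were above 1 CPM in each line, among them GATA1 at 200.4 CPM in edit-3, 197 CPM in K/VP.5 and 272 CPM in K562, while HBE1 was under 1 CPM in each. Genes defining other lineages were mostly near 0 (CD3E, CD2, MS4A1, CD14, MPO, PF4, GP9, CPA3 and CDH5 were each under 1 CPM in each line), but COL1A2 averaged 2518 CPM in edit-3, 231 CPM in K/VP.5 and 6.68 CPM in K562, and EPCAM 334 CPM in edit-3, 155 CPM in K/VP.5 and 166 CPM in K562. TOP2A itself averaged 420.1 ± 28.9 CPM in edit-3, 362 ± 15.2 CPM in K/VP.5 and 509 ± 27.1 CPM in K562 (SD, n = 4), and a count per gene does not separate transcripts that keep intron 19. In these bulk libraries fewer cells expressing a gene and less RNA per cell cannot be told apart.

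The median member stood at 16.1 CPM in edit-3, 2.09 CPM in K/VP.5 and 13.0 CPM in K562. The lower of edit-3 and K562 exceeded K/VP.5 by 3 to 5 times in 41 members, by 5 to 10 times in 19 and by 10 times or more in 15, with a median of 4.81. These differences chose the genes and are given without a test. For the same reason nothing is read from the counts of calls in both comparisons, which share the K/VP.5 libraries: in edit-3 against K/VP.5, 74 of 75 passed as higher (12.9% of all genes tested), and in K/VP.5 against K562, 73 of 75 passed as lower (18.3% of all genes tested). In 73 of 75 members every K/VP.5 library lay below every library of both other lines, which held for 4.85% of all genes tested. The exceptions were MDGA1 and HSPA6, whose K/VP.5 libraries overlapped those of K562. For MDGA1 they also overlapped edit-3, as K/VP.5 replicate 4, at 5.77 CPM, exceeded edit-3 replicate 1, at 3.63 CPM.

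**Figure D1:**
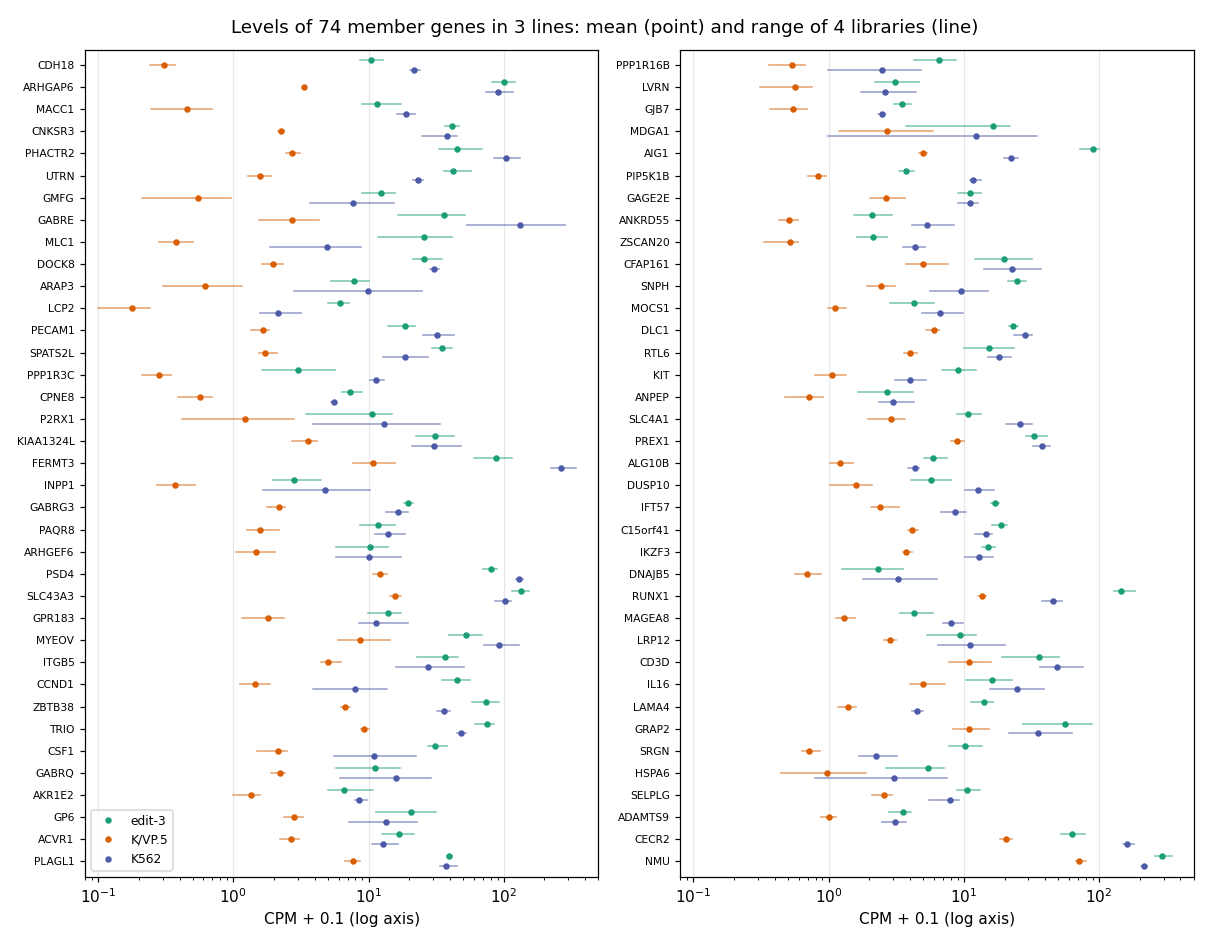
CPM + 0.1 on a log axis for 74 of the 75 members, ordered down the left and then the right panel by the fold between the lower of edit-3 and K562 and K/VP.5. Points are means and lines the range of 4 libraries for edit-3 (green), K/VP.5 (orange) and K562 (blue). The orange points lie to the left in each row by the choice of genes, from 34.1-fold for CDH18 to 3.02-fold for NMU, while green and blue change places from gene to gene.

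The threshold cuts through a continuous range. Just inside it stood NMU at 3.02-fold, CECR2 at 3.07-fold, ADAMTS9 at 3.08-fold, SELPLG at 3.099-fold and HSPA6 at 3.14-fold. Just outside it stood VAV1 and ANTXR2 at 2.99-fold, GAGE12G and TRPV2 at 2.96-fold and TMSB4X at 2.95-fold. VAV1 is an exchange factor of blood cells, and TMSB4X binds actin monomers. CDC42EP3 and ENPP3 differed by 7.07-fold and 9.36-fold but fell short of the level of 2, at 1.85 in K562 for CDC42EP3 and 1.85 in edit-3 for ENPP3 (CPM + 0.1).

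The deepest loss was in CDH18, a cadherin of cell-cell adhesion known mainly from the nervous system (ENSG00000145526, chr5:19472951-20575873, minus strand). It had 9.76, 12.7, 8.504 and 10.4 CPM in edit-3 libraries, 0.231, 0.141, 0.183 and 0.2698 CPM in those of K/VP.5 and 23.9, 20.2, 20.6 and 21.97 CPM in those of K562. The K/VP.5 libraries were close to the detection limit and the other lines far above them without overlap, with edit-3 below K562. ARHGAP6, which switches off small GTPases (ENSG00000047648, chrX:11137543-11665701, minus strand), had 81.8, 122, 93.5 and 105 CPM in edit-3 libraries, 3.17, 3.32, 3.22 and 3.16 CPM in those of K/VP.5 and 73.7, 91.8, 82.7 and 117 CPM in those of K562. Its K/VP.5 libraries were nearly identical, and the edit-3 and K562 libraries overlapped. CNKSR3, a scaffold of the MAP kinase pathway, had 46.8, 36.4, 42.4 and 40.6 CPM in edit-3 libraries, 2.16, 2.26, 2.05 and 2.13 CPM in those of K/VP.5 and 45.1, 41.1, 41.8 and 24.7 CPM in those of K562, and edit-3 and K562 again overlapped, with K562 replicate 4 the lowest of the 8. MACC1, a regulator of MET signalling in colon cancer, was 25.3-fold higher in the lower of the other lines than in K/VP.5 and averaged 11.4 CPM in edit-3, 0.354 CPM in K/VP.5 and 18.8 CPM in K562.

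There were 6 members that act in transcription or on chromatin. RUNX1 is a core-binding factor that directs definitive hematopoiesis and megakaryocyte maturation (ENSG00000159216, chr21:34787801-36004667, minus strand), and it had 131, 184, 129.6 and 137 CPM in edit-3 libraries, 13.02, 14.4, 13.8 and 12.6 CPM in those of K/VP.5 and 39.4, 50.04, 37.9 and 53.5 CPM in those of K562. The lines did not overlap, and edit-3 stood above K562, with edit-3 replicate 2 apart from the other edit-3 libraries. ZBTB38, a zinc finger protein that binds methylated DNA, had the same order of lines with 74.3 CPM in edit-3, 6.62 CPM in K/VP.5 and 35.9 CPM in K562. IKZF3 (Aiolos), a lymphoid factor, had 13.9, 16.9, 13.4 and 15.3 CPM in edit-3 libraries, 3.43, 3.67, 3.48 and 4.02 CPM in those of K/VP.5 and 10.3, 16.3, 10.1 and 14.9 CPM in those of K562, and PLAGL1, an imprinted zinc finger factor, had 39.8, 39.03, 37.8 and 41.4 CPM in edit-3 libraries, 8.11, 7.17, 8.61 and 6.64 CPM in those of K/VP.5 and 33.7, 33.4, 35.7 and 45.4 CPM in those of K562. In both genes edit-3 and K562 overlapped and K/VP.5 lay below them. CECR2, a bromodomain protein of chromatin remodelling complexes, stood in another order, at 63.4 CPM in edit-3, 20.5 CPM in K/VP.5 and 161 CPM in K562, and ZSCAN20, a little-studied zinc finger protein, likewise at 2.02 CPM in edit-3, 0.422 CPM in K/VP.5 and 4.25 CPM in K562.

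Growth factors, cytokines and their receptors gave 7 members. KIT, the receptor of stem cell factor (ENSG00000157404, chr4:54657918-54740715, plus strand), had 6.81, 12.3, 7.41 and 9.27 CPM in edit-3 libraries, 1.24, 1.09, 0.696 and 0.809 CPM in those of K/VP.5 and 3.17, 5.17, 3.02 and 4.35 CPM in those of K562. K/VP.5 was lowest and edit-3 highest in all libraries, with no overlap between lines. CSF1, the growth factor of macrophages, had 27.5, 29.9, 38.2 and 29.1 CPM in edit-3 libraries, 1.39, 2.37, 2.09 and 2.37 CPM in those of K/VP.5 and 5.45, 9.76, 5.61 and 22.3 CPM in those of K562. Here too edit-3 lay above K562, in which replicate 4 was higher than the other 3 libraries. NMU, the neuropeptide neuromedin U (ENSG00000109255, chr4:55595229-55636698, minus strand), was the most abundant member per length, at 300.6 RPKM in edit-3, 72.8 RPKM in K/VP.5 and 220 RPKM in K562 (CPM per kilobase of annotated exon). ACVR1, a type I receptor of bone morphogenetic proteins, averaged 16.6 CPM in edit-3, 2.56 CPM in K/VP.5 and 12.7 CPM in K562, GPR183, an oxysterol receptor of lymphocytes, 13.8 CPM in edit-3, 1.697 CPM in K/VP.5 and 11.2 CPM in K562, and IL16, which is processed to a lymphocyte chemoattractant, 16.1 CPM in edit-3, 4.85 CPM in K/VP.5 and 24.5 CPM in K562. The exons of IL16 overlap those of STARD5 on the other strand, so reads of both may have been mixed.

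Platelet and leukocyte proteins were represented on the cell surface and inside the cell. GP6, the collagen receptor of platelets (ENSG00000088053, chr19:55013705-55038264, minus strand), had 11.3, 31.2, 15.6 and 24.3 CPM in edit-3 libraries, 2.25, 2.44, 3.19 and 2.91 CPM in those of K/VP.5 and 7.07, 15.1, 8.73 and 22.7 CPM in those of K562. K/VP.5 was below both other lines, which overlapped widely. PECAM1, an adhesion protein of platelets, leukocytes and endothelium, had 13.8, 21.5, 16.4 and 22.1 CPM in edit-3 libraries, 1.24, 1.73, 1.68 and 1.62 CPM in those of K/VP.5 and 25.3, 34.02, 25.5 and 43.02 CPM in those of K562. The lines did not overlap, with edit-3 between the others. P2RX1, an ATP-gated channel of platelets, averaged 10.6 CPM in edit-3, 1.11 CPM in K/VP.5 and 12.99 CPM in K562, with K562 libraries between 3.79 and 33.7 CPM. CD3D, a chain of the T cell receptor complex, had 19.2, 39.6, 33.6 and 50.4 CPM in edit-3 libraries, 7.71, 9.82, 9.89 and 15.9 CPM in those of K/VP.5 and 37.3, 46.97, 36.3 and 75.6 CPM in those of K562, and edit-3 and K562 overlapped. CD3E, its partner in T cells, was under 1 CPM in each line, and CD3G, which lies beside CD3D, averaged 13.1 CPM in edit-3, 13.8 CPM in K/VP.5 and 21.1 CPM in K562. SELPLG, the ligand of P-selectin on leukocytes, averaged 10.48 CPM in edit-3, 2.45 CPM in K/VP.5 and 7.799 CPM in K562, and ANPEP, an aminopeptidase of myeloid cells, 2.62 CPM in edit-3, 0.619 CPM in K/VP.5 and 2.92 CPM in K562.

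Adaptor and granule proteins of blood cells gave 5 members. FERMT3 (kindlin-3) activates integrins in platelets and leukocytes (ENSG00000149781, chr11:64206678-64223886, plus strand) and had 60.6, 88.3, 84.7 and 114 CPM in edit-3 libraries, 7.62, 11.3, 8.42 and 15.5 CPM in those of K/VP.5 and 223, 267, 237 and 341 CPM in those of K562. K/VP.5 was lowest, edit-3 intermediate and K562 highest in all libraries. LCP2 (SLP-76), an adaptor below the T cell receptor and GP6 (ENSG00000043462, chr5:170246237-170298227, minus strand), had 4.91, 7.12, 5.42 and 6.94 CPM in edit-3 libraries, 0.0577, 0.141, 0.1099 and 0 CPM in those of K/VP.5 and 1.48, 2.04, 1.59 and 3.08 CPM in those of K562. It was close to absent in K/VP.5, with no read in replicate 4, and edit-3 exceeded K562 in every library. GRAP2, an adaptor that binds LCP2, averaged 55.9 CPM in edit-3, 10.9 CPM in K/VP.5 and 35.3 CPM in K562. SRGN (serglycin), the core proteoglycan of secretory granules, had 9.54, 13.5, 7.67 and 9.51 CPM in edit-3 libraries, 0.577, 0.565, 0.769 and 0.5396 CPM in those of K/VP.5 and 1.59, 2.0999, 1.79 and 3.08 CPM in those of K562, in the same order as LCP2. GMFG, which remodels branched actin in blood cells, averaged 12.2 CPM in edit-3, 0.445 CPM in K/VP.5 and 7.61 CPM in K562.

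**Figure D2:**
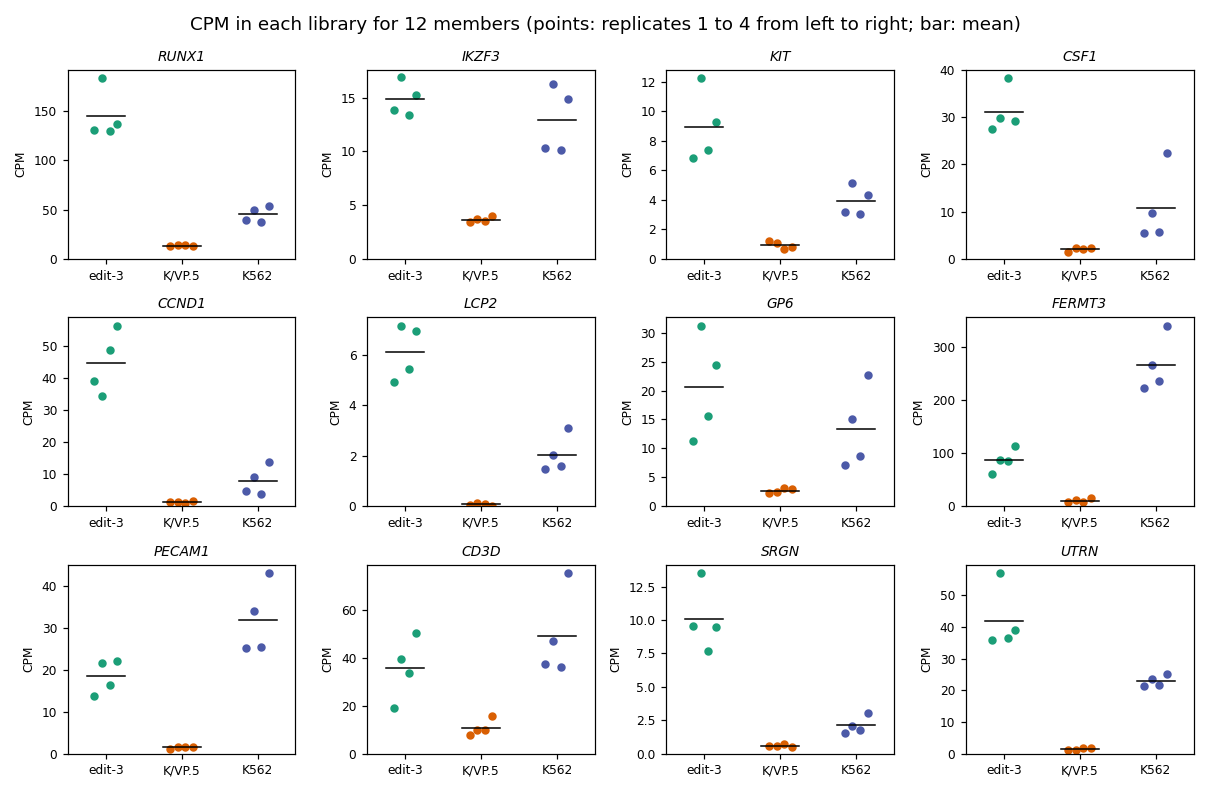
CPM on linear axes in each library of edit-3 (green), K/VP.5 (orange) and K562 (blue) for 12 members, with replicates 1 to 4 from left to right within a line and a bar at the mean. K/VP.5 is low in each panel, while edit-3 exceeds K562 for RUNX1, KIT, CSF1, CCND1, LCP2, SRGN and UTRN and lies below it for FERMT3 and PECAM1.

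Lists of lineage genes were chosen with earlier results of these data known, and their counts of members were not tested. Members were 75 of the 19912 protein-coding genes in the table, of which 10311 reached the level of 2 in edit-3 and K562. Of 16 lymphoid genes tested (36 in the table), 3 were members (CD3D, IKZF3 and LCP2). The members were chosen for these differences, so the lists are described without them. Of the other 13 lymphoid genes, 4 were called higher and 0 lower in edit-3 against K/VP.5 (12.9% and 10.6% of all genes tested), with a median of 0.57 on the log2 scale, and 3 higher and 1 lower in K/VP.5 against K562 (18.3% of all genes tested in each direction), with a median of 0.10. Of 14 megakaryocyte and platelet genes tested (25 in the table), GP6 was the 1 member. Of the other 13, 5 were called higher and 2 lower in edit-3 against K/VP.5, with a median of 0.19, and 3 higher and 5 lower in K/VP.5 against K562, with a median of -0.19, beside the same shares of all genes. Its best known integrin chains followed another pattern: ITGA2B averaged 13.9 CPM in edit-3, 1.61 CPM in K/VP.5 and 0.917 CPM in K562, and ITGB3 averaged 3.88 CPM in edit-3, 0.450 CPM in K/VP.5 and 0.500 CPM in K562. Among 40 erythroid genes tested (41 in the table), SLC4A1, the anion exchanger of red cells, was the 1 member. It averaged 10.7 CPM in edit-3, 2.801 CPM in K/VP.5 and 26.1 CPM in K562. The other 39 had 7 called higher and 9 lower in edit-3 against K/VP.5, with a median of 0.029. In K/VP.5 against K562, 14 were called higher and 4 lower, with a median of 0.13, beside the same shares of all genes. Of 16 lists and 34 gene families looked up, 7 lists and 24 families held no member, no list held more than 3 and none of these families more than 2.

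Regulators of small GTPases made up 8 members. DOCK8, an exchange factor for CDC42 in leukocytes, had 21.2, 35.1, 21.7 and 23.8 CPM in edit-3 libraries, 1.85, 2.23, 1.904 and 1.54 CPM in those of K/VP.5 and 28.7, 30.7, 28.6 and 33.2 CPM in those of K562, and edit-3 and K562 overlapped far above K/VP.5. PSD4, an exchange factor for ARF6, had 71.9, 70.4, 89.3 and 88.1 CPM in edit-3 libraries, 10.8, 11.5, 13.6 and 12.4 CPM in those of K/VP.5 and 122, 127, 128 and 139 CPM in those of K562, with no overlap between the lines. PREX1, a Rac exchange factor, averaged 33.1 CPM in edit-3, 8.86 CPM in K/VP.5 and 37.8 CPM in K562, and ARHGEF6, another Rac exchange factor, 10.2 CPM in edit-3, 1.37 CPM in K/VP.5 and 10.01 CPM in K562. TRIO, which acts on Rac and RhoA, averaged 75.6 CPM in edit-3, 9.21 CPM in K/VP.5 and 48.5 CPM in K562, ARAP3, which switches off ARF6 and RhoA, 7.72 CPM in edit-3, 0.521 CPM in K/VP.5 and 9.88 CPM in K562, and DLC1, a GTPase-inactivating tumor suppressor, 22.96 CPM in edit-3, 5.91 CPM in K/VP.5 and 28.5 CPM in K562. The median fold between the lower of the other lines and K/VP.5 was 6.74 over the 8 genes, from 3.70 for PREX1 to 27.6 for ARHGAP6.

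Kinase scaffolds, phosphatases and phosphoinositide enzymes gave 7 members. PPP1R3C directs protein phosphatase 1 to glycogen and averaged 2.89 CPM in edit-3, 0.1803 CPM in K/VP.5 and 11.4 CPM in K562. PPP1R16B, another phosphatase 1 subunit, averaged 6.48 CPM in edit-3, 0.431 CPM in K/VP.5 and 2.395 CPM in K562, and DUSP10, which dephosphorylates p38 and JNK, 5.61 CPM in edit-3, 1.51 CPM in K/VP.5 and 12.6 CPM in K562. PIP5K1B, which makes phosphatidylinositol bisphosphate, averaged 3.63 CPM in edit-3, 0.739 CPM in K/VP.5 and 11.7 CPM in K562. INPP1, an inositol polyphosphate phosphatase, averaged 2.69 CPM in edit-3, 0.269 CPM in K/VP.5 and 4.64 CPM in K562, and its exons overlap the more abundant HIBCH on the other strand. For PPP1R3C, DUSP10 and PIP5K1B the edit-3 mean thus lay between those of K/VP.5 and K562, and for PPP1R16B it lay above both.

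The remaining members spanned adhesion, channels, transport and growth. CCND1 (cyclin D1), which drives G1 progression with CDK4 and CDK6 (ENSG00000110092, chr11:69641087-69654474, plus strand), had 39.2, 34.6, 48.95 and 56.3 CPM in edit-3 libraries, 1.299, 1.24, 1.03 and 1.78 CPM in those of K/VP.5 and 4.76, 9.08, 3.79 and 13.7 CPM in those of K562. Edit-3 was far above K562 and K562 above K/VP.5, with no overlap. Its last exon overlaps ORAOV1 on the other strand, which averaged 17.5 CPM in edit-3, 19.5 CPM in K/VP.5 and 24.04 CPM in K562. LAMA4, a laminin chain of vessel basement membranes, averaged 14.1 CPM in edit-3, 1.29 CPM in K/VP.5 and 4.43 CPM in K562, ITGB5, a vitronectin receptor chain, 36.8 CPM in edit-3, 4.88 CPM in K/VP.5 and 27.5 CPM in K562, and MLC1, a membrane protein of astrocytes, 25.8 CPM in edit-3, 0.274 CPM in K/VP.5 and 4.801 CPM in K562. SLC43A3, a purine base transporter, averaged 134 CPM in edit-3, 15.7 CPM in K/VP.5 and 102 CPM in K562, ADAMTS9, a protease of the extracellular matrix, 3.46 CPM in edit-3, 0.899 CPM in K/VP.5 and 2.98 CPM in K562, and SPATS2L, a nucleolar stress protein, 35.02 CPM in edit-3, 1.63 CPM in K/VP.5 and 18.5 CPM in K562. GAGE2E, MAGEA8, HSPA6 and ALG10B have near-identical copies, and their values are uncertain, as the treatment of reads with several matches is not given in sources used here.

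Other members had varied or little-known roles. LVRN, an aminopeptidase, averaged 3.01 CPM in edit-3, 0.468 CPM in K/VP.5 and 2.53 CPM in K562, and LRP12, a lipoprotein receptor relative, 9.27 CPM in edit-3, 2.76 CPM in K/VP.5 and 10.9 CPM in K562. SNPH, which anchors axonal mitochondria, had 24.7 CPM in edit-3, 2.35 CPM in K/VP.5 and 9.51 CPM in K562, and IFT57, which carries cargo in cilia, 16.8 CPM in edit-3, 2.31 CPM in K/VP.5 and 8.44 CPM in K562. AKR1E2, an aldo-keto reductase, averaged 6.52 CPM in edit-3, 1.26 CPM in K/VP.5 and 8.46 CPM in K562, MOCS1, of molybdenum cofactor synthesis, 4.21 CPM in edit-3, 1.02 CPM in K/VP.5 and 6.58 CPM in K562, and PAQR8, a membrane progestin receptor, 11.6 CPM in edit-3, 1.47 CPM in K/VP.5 and 13.9 CPM in K562. C15orf41, mutated in a congenital dyserythropoietic anemia, averaged 18.6 CPM in edit-3, 4.02 CPM in K/VP.5 and 14.5 CPM in K562. GJB7, a connexin, stood at 3.41 CPM in edit-3, 0.448 CPM in K/VP.5 and 2.38 CPM in K562, and DNAJB5, an HSP40 chaperone, at 2.24 CPM in edit-3, 0.595 CPM in K/VP.5 and 3.16 CPM in K562. RTL6 stood at 15.1 CPM in edit-3, 3.89 CPM in K/VP.5 and 17.98 CPM in K562, KIAA1324L at 30.995 CPM in edit-3, 3.49 CPM in K/VP.5 and 30.4 CPM in K562 and ANKRD55 at 1.99 CPM in edit-3, 0.408 CPM in K/VP.5 and 5.22 CPM in K562. Exons of GJB7 overlap SMIM8 and those of GP6 overlap a non-coding gene, so their reads may also have been mixed, and the value of PAQR8 is uncertain in the same way.

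GABA-A receptor subunits form chloride channels in neurons, and 3 of them were members. GABRE had 16.3, 32.2, 44.4 and 51.2 CPM in edit-3 libraries, 1.44, 2.76, 2.05 and 4.18 CPM in those of K/VP.5 and 53.8, 130.0, 56.4 and 285 CPM in those of K562, with K/VP.5 far below both other lines and edit-3 below K562. GABRG3 averaged 19.4 CPM in edit-3, 2.09 CPM in K/VP.5 and 16.4 CPM in K562 and GABRQ 10.98 CPM in edit-3, 2.12 CPM in K/VP.5 and 15.9 CPM in K562. The gene between GABRE and GABRQ on the X chromosome, GABRA3, was no member: it averaged 2.38 CPM in edit-3, 2.07 CPM in K/VP.5 and 6.20 CPM in K562. Of the other 13 glutamate, GABA and glycine receptor genes tested, 3 were called higher and 5 lower in K/VP.5 against K562 (18.3% of all genes in each direction), and 2 higher and 1 lower in edit-3 against K/VP.5 (12.9% and 10.6% of all genes).

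Edit-3 was set against K562 to see how closely the edited clone approached the parental level. The choice of genes put no threshold on this difference, although it used the levels of both lines. Of the 75 members, 38 passed an adjusted p of 0.05 in edgeR's quasi-likelihood test (50.7%), against 39.2% of all 18286 genes tested. All genes tested include less abundant genes than the members, so these shares are not matched for level. Of 14585 genes with at least 1 CPM in 4 or more libraries, 3300 were higher and 3158 lower in edit-3. Among the members, edit-3 was higher in 20 (20.6% of all genes tested) and lower in 18 (18.6% of all genes tested). The choice of genes treated edit-3 and K562 alike, which favours such a balance, so nothing is read from it. At 2-fold or more, 12 were higher, where 10% of all genes passed, and 11 were lower, where 4.93% passed. The median log2 fold change was 0.079 over the members and 0.0045 over all genes, and the median absolute log2 fold change was 0.60 over the members and 0.32 over all genes. The libraries of edit-3 and K562 did not overlap in 36 of 75 members, against 34.2% of all genes tested.

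The largest excess in edit-3 was in CCND1, with a log2 difference of 2.48 ± 0.35 (SE, adjusted p = 0.000134). MLC1 followed at 2.39 ± 0.51 (SE, adjusted p = 0.00292), SRGN at 2.19 ± 0.21 (SE, adjusted p = 1.13e-06), AIG1 at 1.96 ± 0.11 (SE, adjusted p = 2.21e-09) and RUNX1 at 1.64 ± 0.13 (SE, adjusted p = 8.63e-08). LAMA4 stood at 1.62 ± 0.14 (SE, adjusted p = 3.45e-07), LCP2 at 1.53 ± 0.27 (SE, adjusted p = 0.000353) and CSF1 at 1.496 ± 0.39 (SE, adjusted p = 0.00978). In these 8 genes every edit-3 library was above every K562 library. KIT, with 1.14 ± 0.22 (SE, adjusted p = 0.000746), UTRN, with 0.83 ± 0.14 (SE, adjusted p = 0.000301), and TRIO, with 0.60 ± 0.09 (SE, adjusted p = 0.000133), were higher by less. Without K562 replicate 4, the log2 fold change of CSF1 was 2.12, and GP6, GRAP2, GMFG, GPR183, ITGB5, ACVR1 and HSPA6 also passed as higher in edit-3. C15orf41 no longer did, so that 26 members passed as higher. The call of ACVR1 was likewise made without edit-3 replicate 1.

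The largest deficit in edit-3 was in PPP1R3C, with a log2 difference of -2.03 ± 0.29 (SE, adjusted p = 6.88e-05). GABRE followed at -1.91 ± 0.57 (SE, adjusted p = 0.0234), PIP5K1B at -1.73 ± 0.13 (SE, adjusted p = 8.04e-08) and FERMT3 at -1.66 ± 0.24 (SE, adjusted p = 0.000126). ANKRD55 stood at -1.43 ± 0.26 (SE, adjusted p = 0.000486), CECR2 at -1.39 ± 0.11 (SE, adjusted p = 1.31e-07), SLC4A1 at -1.33 ± 0.20 (SE, adjusted p = 9.43e-05) and PHACTR2 at -1.26 ± 0.20 (SE, adjusted p = 0.000265). In these 8 genes every edit-3 library was below every K562 library. The call of GABRE was lost without edit-3 replicate 1, at a log2 fold change of -1.67, without edit-3 replicate 2, at -1.85, and without K562 replicate 4, at -1.20, with adjusted p between 0.0583 and 0.0648. The calls of MYEOV, MOCS1 and DLC1, lower in edit-3 by less, and of SLC43A3, ALG10B and C15orf41, higher in edit-3, were also lost without 1 or more libraries. Members that did not pass included PLAGL1 at 0.05 ± 0.11 (SE, adjusted p = 0.749), KIAA1324L at -0.01 ± 0.27 (SE, adjusted p = 0.973) and ARHGAP6 at 0.10 ± 0.13 (SE, adjusted p = 0.604). The 95% interval of ARHGAP6 spans 0.25 to either side on the log2 scale, and that of MDGA1, at 0.41 ± 1.01 (SE, adjusted p = 0.788), spans 1.98, so the second says little about the size of a difference.

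**Figure D3:**
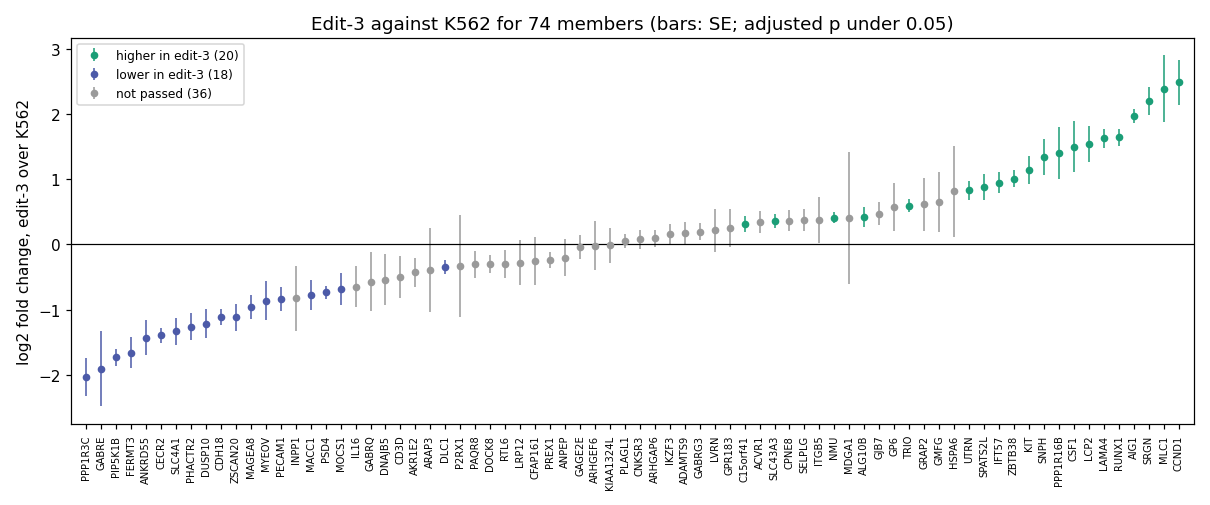
Log2 fold change of edit-3 over K562 with its standard error for 74 of the 75 members in rising order. Colors mark the 20 genes higher in edit-3, the 18 lower and the 36 that did not pass, from PPP1R3C at -2.03 to CCND1 at 2.48.

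By role, edit-3 exceeded K562 in 3 of 7 growth factors, cytokines and receptors and was lower in 0, where 20.6% of all genes tested were higher and 18.6% lower. Among kinase scaffolds, phosphatases and phosphoinositide enzymes, 1 of 7 was higher and 4 were lower. Platelet and leukocyte surface proteins had 1 of 6 lower, PECAM1 at -0.83 ± 0.18 (SE, adjusted p = 0.00198), and 0 higher. The 6 genes of transcription and chromatin split into 2 higher (RUNX1 and ZBTB38), 2 lower (CECR2 and ZSCAN20) and 2 that did not pass. Of the 5 adaptors and granule proteins, LCP2 and SRGN were higher, FERMT3 was lower and 2 did not pass. These roles were assigned with the values known, and no group was tested as such.

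On chromosome 6, the annotated left ends of 4 members lie within 1.23 Mb in band 6q24. AIG1, a membrane hydrolase of fatty acid esters (ENSG00000146416, chr6:143060496-143340304, plus strand), had 72.8, 101, 89.4 and 96.5 CPM in edit-3 libraries, 4.62, 4.56, 5.1996 and 5.18 CPM in those of K/VP.5 and 20.1, 25.3, 19.8 and 24.1 CPM in those of K562. PHACTR2, which binds actin and protein phosphatase 1 (ENSG00000112419, chr6:143536845-143831185, plus strand), had 40.4, 69.1, 33.1 and 37.3 CPM in edit-3 libraries, 2.34, 3.002, 2.45 and 2.59 CPM in those of K/VP.5 and 91.4, 111, 83.95 and 131 CPM in those of K562. PLAGL1 follows (ENSG00000118495, chr6:143940300-144064599, minus strand), and UTRN, which encodes utrophin, the relative of dystrophin (ENSG00000152818, chr6:144285701-144853034, plus strand), had 35.8, 56.9, 36.5 and 39.01 CPM in edit-3 libraries, 1.18, 1.201, 1.79 and 1.6997 CPM in those of K/VP.5 and 21.4, 23.5, 21.7 and 25.3 CPM in those of K562. K/VP.5 was lowest in each, but the order of the other lines differed: edit-3 was above K562 for AIG1 and UTRN, below it for PHACTR2 and level with it for PLAGL1.

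Several genes between them did not share the pattern. FUCA2 averaged 139 CPM in edit-3, 157 CPM in K/VP.5 and 132 CPM in K562, ADAT2 38.0 CPM in edit-3, 48.1 CPM in K/VP.5 and 38.4 CPM in K562, and LTV1 27.9 CPM in edit-3, 29.4 CPM in K/VP.5 and 30.1 CPM in K562. SF3B5 averaged 114 CPM in edit-3, 105 CPM in K/VP.5 and 140 CPM in K562. Against K562, K/VP.5 was lower for SF3B5 at log2 -0.45 (edgeR, adjusted p = 0.00182) and higher for FUCA2 at 0.21 (edgeR, adjusted p = 0.0470). At lower levels K/VP.5 was below both other lines for HYMAI, a non-coding transcript inside PLAGL1, at 0.690 CPM in edit-3, 0.150 CPM in K/VP.5 and 0.979 CPM in K562, and for the pseudogene AL136116.3, between AIG1 and PHACTR2, at 1.35 CPM in edit-3, 0.119 CPM in K/VP.5 and 0.532 CPM in K562. STX11, a syntaxin of cytotoxic cells, averaged 2.59 CPM in edit-3, 0.163 CPM in K/VP.5 and 0.396 CPM in K562, and its difference between K/VP.5 and K562 did not pass (edgeR, adjusted p = 0.0510). HIVEP2, on the far side of AIG1, was high in edit-3 at 28.8 CPM, against 2.38 CPM in K/VP.5 and 2.15 CPM in K562.

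**Figure D4:**
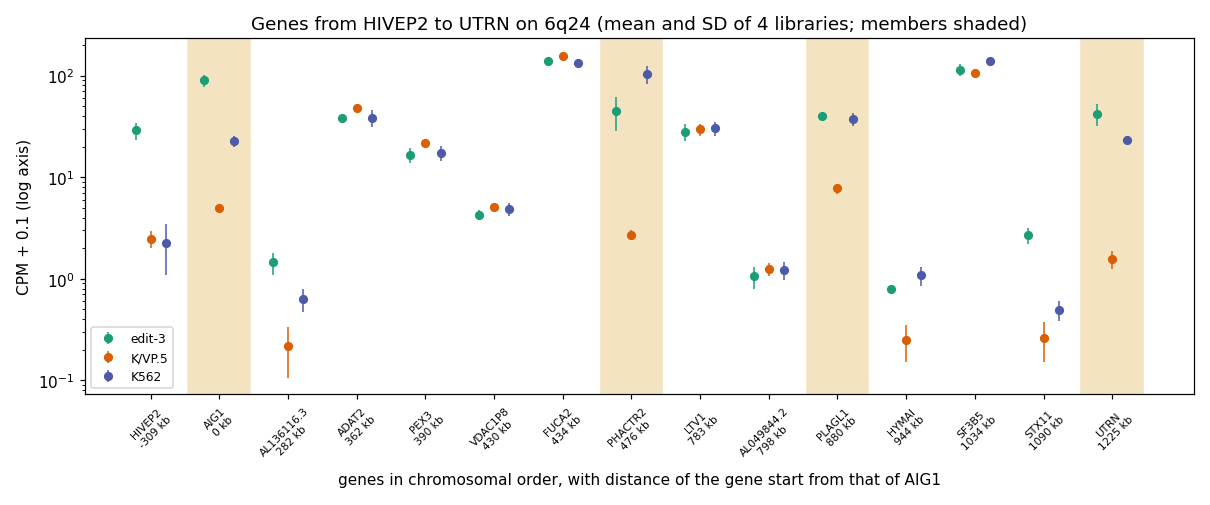
Mean and SD of CPM + 0.1 (log axis, n = 4) in edit-3 (green), K/VP.5 (orange) and K562 (blue) for the genes from HIVEP2 to UTRN that reached about 1 CPM in some line, in chromosomal order with the distance of the gene start from that of AIG1. The shaded members AIG1, PHACTR2, PLAGL1 and UTRN drop in K/VP.5, while ADAT2, PEX3, FUCA2, LTV1 and SF3B5 between them differ far less.

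The promoters of these 4 genes are shown because these genes were low together in K/VP.5 while most genes between them were not. Each window runs from 250 bases before to 50 bases after the start given by RefSeq (GRCh38.p14), 5′ to 3′ on the strand of the gene, with CG dinucleotides, the targets of DNA methylation, in capitals. The windows are chr6:143060213-143060512 for AIG1, chr6:143607930-143608229 for PHACTR2, chr6:144064550-144064849 for PLAGL1 and chr6:144285085-144285384 for UTRN. The start used for PHACTR2 lies 71.3 kb inside the GENCODE gene. For UTRN the start lies 366 bases before the GENCODE gene, and for AIG1 33 bases before. In AIG1 and UTRN the bases after the start were found in no GENCODE transcript of the gene.
AIG1: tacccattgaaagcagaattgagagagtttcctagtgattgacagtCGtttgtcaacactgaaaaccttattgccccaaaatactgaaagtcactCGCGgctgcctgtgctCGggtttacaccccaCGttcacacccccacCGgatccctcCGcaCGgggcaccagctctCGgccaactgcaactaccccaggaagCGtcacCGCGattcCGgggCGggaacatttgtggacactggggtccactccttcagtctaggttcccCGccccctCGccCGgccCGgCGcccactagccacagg
PHACTR2: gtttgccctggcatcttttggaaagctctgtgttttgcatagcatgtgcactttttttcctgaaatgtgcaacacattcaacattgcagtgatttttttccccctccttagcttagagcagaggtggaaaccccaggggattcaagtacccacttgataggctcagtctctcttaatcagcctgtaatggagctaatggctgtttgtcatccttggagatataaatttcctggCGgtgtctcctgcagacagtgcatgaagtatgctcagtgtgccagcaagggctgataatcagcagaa
PLAGL1: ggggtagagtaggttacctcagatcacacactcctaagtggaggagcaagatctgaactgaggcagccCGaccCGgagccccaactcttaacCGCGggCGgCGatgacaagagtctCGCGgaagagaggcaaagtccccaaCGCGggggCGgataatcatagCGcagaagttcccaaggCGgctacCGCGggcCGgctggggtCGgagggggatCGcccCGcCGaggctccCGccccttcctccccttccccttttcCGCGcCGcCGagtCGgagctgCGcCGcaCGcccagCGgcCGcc
UTRN: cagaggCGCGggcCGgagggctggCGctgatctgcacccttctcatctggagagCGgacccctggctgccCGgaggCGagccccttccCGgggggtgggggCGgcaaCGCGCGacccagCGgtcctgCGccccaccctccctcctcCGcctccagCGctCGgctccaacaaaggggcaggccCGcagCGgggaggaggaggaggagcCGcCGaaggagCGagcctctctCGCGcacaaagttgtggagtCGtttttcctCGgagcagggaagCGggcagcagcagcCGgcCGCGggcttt
The windows hold 19 CG dinucleotides for AIG1, 1 for PHACTR2, 31 for PLAGL1 and 30 for UTRN, against a median of 25 over the promoters of tested coding genes. The 4 genes thus include CG-rich and CG-poor windows, and methylation was not measured.

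Other members also lay near each other, and 14 of 75, the 6q24 genes included, lay within 1 Mb of another member. No such count was made for other genes, so nothing is read from it. Beside the 6q24 genes, the pairs were MYEOV and CCND1, ALG10B and CPNE8, CFAP161 and IL16, KIT and NMU, and GABRE and GABRQ. MYEOV, a gene overexpressed in some myelomas, averaged 52.5 CPM in edit-3, 8.53 CPM in K/VP.5 and 92.6 CPM in K562, CPNE8, a calcium-dependent membrane-binding protein, 7.21 CPM in edit-3, 0.464 CPM in K/VP.5 and 5.42 CPM in K562, and CFAP161, a protein of cilia, 19.7 CPM in edit-3, 4.897 CPM in K/VP.5 and 22.7 CPM in K562. Genes between the members did not all share the pattern. Between KIT and NMU, SRD5A3 averaged 27.8 CPM in edit-3, 26.2 CPM in K/VP.5 and 28.7 CPM in K562, and TMEM165 93.4 CPM in edit-3, 101 CPM in K/VP.5 and 96.1 CPM in K562, while PDCL2, at 0.559 CPM in edit-3, 0.0876 CPM in K/VP.5 and 0.620 CPM in K562, was low in K/VP.5 like the members. Beside CFAP161, TLNRD1 averaged 55.5 CPM in edit-3, 30.5 CPM in K/VP.5 and 198 CPM in K562, low in both sublines. Over the 5 nearest tested genes on each side of each member (687 genes), the median log2 fold change was 0.010 in edit-3 against K/VP.5 and -0.065 in K/VP.5 against K562. Of these, 14.3% were called higher in edit-3 against K/VP.5 (12.9% of all genes tested) and 21.8% lower in K/VP.5 against K562 (18.3% of all genes tested). With 2 genes on each side (282 genes), the shares were 22.7% and 25.9%. Chromosome 6 held 10 members, 13.3% of them against 5.20% of tested coding genes, and chromosomes 14, 16 and 18 held 0.

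The promoters were also searched on both strands for 12 short motifs, of which TGAGTCA and TGACTCA are the same site read from opposite strands. RefSeq windows were matched for 55 members. In 41 of these 55, bases after the start occurred in a GENCODE transcript of the gene. The letters TGTGGT, the core bound by RUNX factors, occurred in 12 of 55 member windows (21.8%), against 10.0% of the windows of 14697 tested coding genes. Over all 35116 windows the share was 13.1%. The form AGATAA of the site of GATA factors occurred in 8 (14.5%), against 5.78% for tested coding genes and 10.3% for all windows. The form TGATAA of that site occurred in 2 (3.64%), against 4.28% and 7.53%. The GC box GGGCGG was in 65.5% of member windows and in 66.1% of the windows of tested coding genes. The E-box CACGTG was in 1.82% of member windows, against 9.43%, and the CCAAT box in 34.5%, against 34.3%. The member windows held a median of 19 CG dinucleotides, against 25 for tested coding genes and 14 for all windows. These shares were not tested, and a match is no evidence of binding.

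As examples, 4 windows with such letters are shown, chosen after their matches were seen, with the RUNX core and both forms of the GATA factor site, on either strand, in capitals. They are chr19:55038215-55038514 for GP6, chr2:113173721-113174020 for PSD4, chr11:118342656-118342955 for CD3D and chr19:39335994-39336293 for GMFG, all GRCh38.p14. The RefSeq start lies 16.6 kb inside the GENCODE gene for PSD4 and 6.33 kb for GMFG.
GP6: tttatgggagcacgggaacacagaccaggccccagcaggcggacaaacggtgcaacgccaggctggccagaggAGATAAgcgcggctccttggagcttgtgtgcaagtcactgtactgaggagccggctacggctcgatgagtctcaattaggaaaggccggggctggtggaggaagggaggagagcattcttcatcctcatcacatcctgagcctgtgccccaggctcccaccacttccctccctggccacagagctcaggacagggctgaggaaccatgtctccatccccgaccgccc
PSD4: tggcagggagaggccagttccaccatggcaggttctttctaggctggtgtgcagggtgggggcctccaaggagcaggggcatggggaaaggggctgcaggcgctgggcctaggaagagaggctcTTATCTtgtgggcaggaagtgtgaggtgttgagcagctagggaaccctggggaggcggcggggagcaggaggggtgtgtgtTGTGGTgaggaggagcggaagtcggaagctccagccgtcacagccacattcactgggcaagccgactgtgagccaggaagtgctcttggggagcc
CD3D: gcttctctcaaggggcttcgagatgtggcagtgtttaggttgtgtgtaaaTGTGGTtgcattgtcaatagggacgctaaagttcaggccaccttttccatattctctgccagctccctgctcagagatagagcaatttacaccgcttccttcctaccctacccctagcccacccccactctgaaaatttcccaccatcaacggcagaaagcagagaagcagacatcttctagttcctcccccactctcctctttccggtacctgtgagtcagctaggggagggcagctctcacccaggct
GMFG: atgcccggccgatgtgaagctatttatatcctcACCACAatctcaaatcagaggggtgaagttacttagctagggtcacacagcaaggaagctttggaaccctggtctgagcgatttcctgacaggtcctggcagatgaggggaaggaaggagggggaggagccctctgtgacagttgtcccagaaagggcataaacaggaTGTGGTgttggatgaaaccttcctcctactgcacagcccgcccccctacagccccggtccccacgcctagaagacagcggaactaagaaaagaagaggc
The GP6 window has 1 match of the first GATA form, PSD4 has 1 of that form and 1 of the RUNX core, CD3D has 1 RUNX core and GMFG has 2. RUNX1 itself was lower in K/VP.5 than in both other lines, and whether that bears on these genes was not tested.

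The libraries of a line differed more in the members than in most genes. The highest K562 library was at least 3 times the lowest in 18 of 75 members (24%), against 2.46% of all genes with a mean of 2 CPM or more in K562. K562 replicate 4 was the highest of its line in 53 members (70.7%, against 36.3% of all genes), and edit-3 replicate 1 the lowest of its line in 52 (69.3%, against 36.0%). K562 replicates 2 and 4 were both above replicates 1 and 3 in 53 members, 70.7% against 29.7% of all genes. The extreme was MDGA1, a membrane-anchored adhesion protein of neurons, with 3.63, 19.8, 20.5 and 21.9 CPM in edit-3 libraries, 1.097, 1.94, 1.61 and 5.77 CPM in those of K/VP.5 and 1.38, 11.7, 0.897 and 34.5 CPM in those of K562. Its K562 libraries reached from below the K/VP.5 level to above every edit-3 library. HSPA6, a stress-induced HSP70, had 2.54, 5.51, 6.11 and 7.06 CPM in edit-3 libraries, 0.346, 0.5298, 0.842 and 1.78 CPM in those of K/VP.5 and 0.759, 3.004, 0.697 and 7.39 CPM in those of K562, and ARAP3 had 5.202, 7.92, 7.85 and 9.903 CPM in edit-3 libraries, 0.202, 0.318, 0.513 and 1.05 CPM in those of K/VP.5 and 3.001, 8.95, 2.72 and 24.8 CPM in those of K562. Without K562 replicate 4, 68 genes met the rule, and GRAP2, HSPA6, LCP2, LRP12, MDGA1, PPP1R16B and SRGN did not. K562 replicate 4 was also the library with the fewest reads, and the part of this spread in the comparison of lines was not tested.

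**Figure D5:**
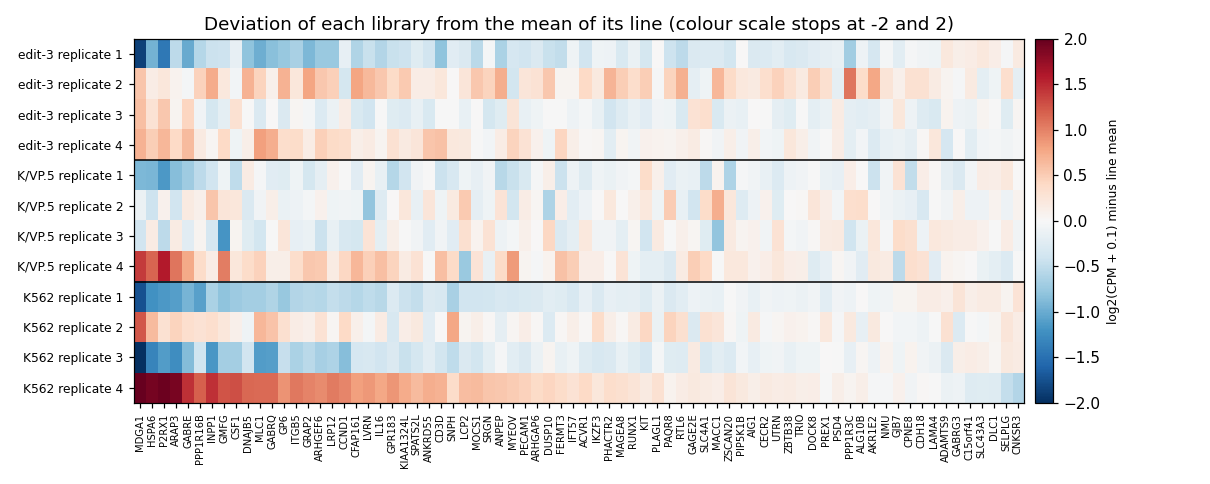
Deviation of log2(CPM + 0.1) of each library from the mean of its own line, for 74 of the 75 members ordered by K562 replicate 4 minus K562 replicate 1 (red above, blue below the line mean, with colors saturated at 2). K562 replicate 4 is red and K562 replicates 1 and 3 are blue for most members, and edit-3 replicate 1 and K/VP.5 replicate 4 stand out in several of the same genes.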

How the data were processed

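The deposited values are whole-number read counts for each gene and library, with no normalization by the authors. The submitters' processing notes name GRCh38, featureCounts, HISAT2 2.1.0 and Subread 1.5.1. For annotation release, strand setting and reads with several matches nothing is given in the sources used here, so reads of overlapping genes cannot be separated and near-identical genes may share reads. CPM was computed from column sums, and positions and exon lengths were taken from GENCODE release 29 (GRCh38). Libraries were assigned by source name and title. The description field, which names the parental line for all libraries, was not used.

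Counts were tested in R 4.3.3 with edgeR 4.0.16 (TMM scaling, filterByExpr, robust quasi-likelihood F test, 1 coefficient per line, all 12 libraries), with Benjamini-Hochberg adjustment over 18286 genes holding 99.9% of reads. All 75 members passed the filter, and an adjusted p under 0.05 counted as a call. DESeq2 1.42.0 (Wald test) served as an alternative. The script was tested on simulated data. The standard error is the log2 fold change divided by the square root of F. No library looked like a copy of another: pairs within a line differed by a chi-square per degree of freedom of 6.68 to 67.4.

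The members, the lists and the roles were chosen with earlier results of these data known. Named genes were the 15 members with the lowest ratio of K/VP.5, the 15 highest in level, the 5 on either side of the threshold, the 8 with the largest change in each direction, list members, close neighbours and genes with a library far from its line. The remaining members are named to account for them, except that values of 1 member, counted in the totals, are not reported here. Promoters were RefSeq windows of GRCh38.p14.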

Additional observations from a re-analysis of the deposited data

Results flagged for a closer look

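In 14 of 222 groups of 4 libraries (74 of the members in 3 lines) the highest or lowest library stood apart from the others by more than Dixon's 95% critical value. That is 6.31%, and chance alone flags about 1 in 20. In edit-3, replicate 2 was high for UTRN (56.9 CPM), RUNX1 (184 CPM) and AKR1E2 (10.6 CPM), and replicate 1 was low for MDGA1 (3.63 CPM). In K/VP.5, replicate 4 was high for NMU (79.6 CPM), IL16 (7.15 CPM), ITGB5 (6.18 CPM), IFT57 (3.21 CPM) and SPATS2L (1.996 CPM), replicate 3 was high for SRGN (0.769 CPM) and replicate 1 was low for ZSCAN20 (0.231 CPM). In K562, replicate 4 was high for GPR183 (19.4 CPM), PIP5K1B (13.4 CPM) and ANKRD55 (8.34 CPM). The high libraries were thus edit-3 replicate 2, K/VP.5 replicates 3 and 4 and K562 replicate 4. The differences between lines in UTRN, RUNX1, PIP5K1B and ANKRD55 kept their calls in all alternatives run.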

How the results depend on the processing

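The member count of 75 became 159 with a threshold of 2 times and 47 with 4 times. It was between 61 and 83 with other level thresholds, constants, scaling or medians, and between 68 and 92 with 1 library left out, lowest without K562 replicate 4 and highest without K/VP.5 replicate 4. Of the 75, 58 met the rule without any 1 library and 17 failed it without some library. For edit-3 against K562, 33 to 41 members were called with 1 library left out (17 to 26 higher, 15 to 20 lower), 40 with DESeq2, 36 with DESeq2 size factors, 33 without a filter, 39 with a stricter filter and 36 with both lines fitted alone. The median log2 fold change ran from 0.0039 to 0.23. All genes called ran from 6478 to 7553 with 1 library left out.

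Of the 38 called members, 30 kept the call in all 18 alternatives, 8 lost it in some and 0 changed sign. PPP1R16B lost it without the filter (adjusted p = 0.0506), SLC43A3 without edit-3 replicate 1 or K562 replicate 2, DLC1 without K562 replicate 1, MOCS1 in 6 alternatives, MYEOV in 8, and ALG10B and C15orf41 in 12 each. The cause was not tested. Of the 37 not called, 17 passed in some alternative.

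The median of the neighbours in edit-3 against K/VP.5 was 0.088 with 2 genes on each side. Deviations of same-numbered libraries correlated at 0.47, 0.050, -0.11 and 0.31 between edit-3 and K562, at 0.36, -0.073, -0.071 and 0.31 between edit-3 and K/VP.5, and at 0.31, 0.15, 0.14 and 0.51 between K/VP.5 and K562, all above 0.1 in the last pair of lines. Each K/VP.5 library correlated best with the K562 library of its own number, although K562 replicate 3 correlated best with K/VP.5 replicate 1, at 0.29. In the pair tested, edit-3 and K562, same-numbered correlations were not all above 0.1. Nor did each library there correlate best with its own number, so the main fit had no replicate block. Whether same-numbered libraries were handled together is not given, and the main fit leaves this out. With the replicate block, 49 members were called (25 higher, 24 lower) and 8121 of all genes, against 38 members and 7166 genes without it. Low counts limit LCP2, CDH18, PPP1R3C and INPP1 in K/VP.5 most.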

Other observations

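Beside the 75 coding members, 11 genes met the same numbers and were left out by biotype or family. The olfactory receptor genes OR51B5, OR51B4 and OR52D1 lie in the beta-globin region, and OR51B5 stood at 34.7 in edit-3, 0.931 in K/VP.5 and 92.2 in K562 (CPM + 0.1). By the rule's fold between the lower of edit-3 and K562 and K/VP.5, this drop exceeded that of all 75 members. The order depends on the added 0.1, as CDH18, at 0.206 CPM in K/VP.5, drops more without it. OR51B4 stood at 11.8 in edit-3, 0.391 in K/VP.5 and 22.6 in K562. Among the non-coding genes, AC079466.1 was the most abundant, at 1168 in edit-3, 278 in K/VP.5 and 949.6 in K562, followed by LINC00958 at 56.9 in edit-3, 16.9 in K/VP.5 and 153 in K562. LINC00534 stood at 7.73 in edit-3, 0.646 in K/VP.5 and 2.81 in K562. These genes were chosen after their values were seen.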
